A study of Mus musculus with 6 samples.

Results

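The Slc25 genes encode the mitochondrial carrier family, and they were taken from the deposited table as every row whose symbol is Slc25a followed by a number. This gave 47 genes of the 34745 in the table, all of them protein-coding in the GENCODE M21 annotation of the mouse genome. Their mRNA was compared between the prostates of mice with hormone-induced benign prostatic hyperplasia (BPH) and control prostates. All mice were male C57BL/6 and were 6 to 8 weeks old at the start. The T + E2 group consisted of 3 mice that carried under the skin, for 12 weeks, a slow-release pellet of testosterone (T) and estradiol (E2). This pellet was exchanged for a fresh pellet each month. The CON group consisted of 3 mice in which the skin was cut and closed without a pellet, also each month. The control was thus for the operation and not for an empty pellet. RNA came from whole prostate tissue, each library from another mouse. Fewer cells of a type and less RNA per cell therefore cannot be told apart in any value below.

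Mitochondrial carriers are small membrane proteins with 6 membrane-spanning helices built from 3 repeats, and most of them sit in the inner mitochondrial membrane, where each exchanges or imports a particular metabolite. They supply ADP and phosphate for ATP synthesis, move di- and tricarboxylates, amino acids, nucleotides, cofactors, iron and glutathione, and close the malate-aspartate shuttle that carries reducing equivalents into the organelle. The prostate is known for secreting large amounts of citrate, which its epithelium makes from aspartate and glucose, so the citrate and the aspartate/glutamate carriers have a particular place in this tissue.

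The libraries held 14816146 to 16555549 counts on genes, and genes of the mitochondrial genome took 4.03 to 5.94% of them. Levels are given as CPM (counts per 1000000 counts of the library), scaled between libraries by TMM for the markers below. At this depth 3 counts corresponded to 0.181 to 0.202 CPM before that scaling. Luminal epithelial markers were detected in every mouse, but their summed level was 15490 to 20110 CPM in the CON group and 4509 to 5095 CPM in the T + E2 group, with Pbsn (probasin, an androgen-driven secretory protein) and Krt18 called lower, Epcam called higher and 3 of 6 markers not called. Pbsn carried this fall, with 12360 to 16650 CPM against 1259 to 1754 CPM, and the other 5 markers summed to 3126 to 3458 CPM in the CON group and 3250 to 3345 CPM in the T + E2 group. All 5 tested red cell markers of 6 listed were called higher (summed 53.95 to 66.23 against 133.9 to 421.3 CPM), 2 of 5 smooth muscle markers were called lower (summed 3367 to 4151 against 2917 to 3191 CPM), and 0 of 5 leukocyte markers were called (28.29 to 47.75 against 36.84 to 57.97 CPM). CON 2 stood apart, with 9939 CPM of seminal vesicle secretory genes against 3.973 and 0.6287 CPM in the other CON mice, and also with the highest sums of the 6 fat markers (144.1 CPM) and the 6 skeletal muscle markers (310.6 CPM). T + E2 2 held 600.7 CPM of the seminal vesicle genes, and the other T + E2 mice 3.251 and 1.401 CPM. None of 3 tested seminal vesicle markers and none of 6 skeletal muscle markers was called, and of 4 tested fat markers Cidea alone was called, as higher (log2 fold change 1.29), while Plin1, Adipoq and Cidec had log2 fold changes of -1.98, -1.58 and -1.46 and were not called. The fat markers summed to 27.55 to 144.1 CPM in the CON group and 14.55 to 40.67 CPM in the T + E2 group. Lep, a defining white fat gene, and Ucp1, the defining brown fat gene, had no count in any T + E2 mouse. In the CON mice Lep had 3, 10 and 6 counts and Ucp1 had 0, 1 and 0, too few to be tested. The part of these cell types in the results on the carriers was not tested, and carrier calls that changed without a library are given with and without it or named with that library.

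A minority of the carriers was called as differing between the groups, in both directions and by less than 2-fold. Values are CPM scaled between libraries by TMM, unless FPKM (fragments scaled to library size and gene length, which allow genes of different length to be compared) is named. Of the 47 genes, 40 had enough counts to be tested by edgeR's quasi-likelihood test, and a gene was called where its Benjamini-Hochberg adjusted p over all 15580 tested genes was under 0.05. Slc25a24, Slc25a33, Slc25a32 and Slc25a12 were called higher in the T + E2 group. Slc25a29, Slc25a28, Slc25a35, Slc25a13, Slc25a1, Slc25a10 and Slc25a51 were called lower. The 4 higher genes were 10% of those tested and the 7 lower genes 17.5%, where 10.4% and 9.25% of all tested genes were called in these directions. The 11 called genes were 27.5% of the tested carriers, against 19.6% of all tested genes. Called differences ran from 1.295-fold to 1.778-fold upwards and from 1.3-fold to 1.654-fold downwards.

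The study called a gene differentially expressed (DEG) where the log2 fold change also exceeded 1 in size. By that rule edgeR called 0 carriers, against 7.64% of all tested genes (4.27% higher and 3.38% lower), while 22 carriers had an unadjusted p under 0.05 and 1 of them, Slc25a48, also had a log2 fold change over 1. DESeq2 called that gene as 1 DEG. The median log2 fold change was -0.03 over the 40 tested carriers and -0.0021 over all tested genes. The CPM of the groups did not overlap for 21 of the 40 carriers (52.5%), against 40.7% of all tested genes, and the 11 called carriers were among these. Of the 29 carriers that were not called, 19 had a log2 fold change under 0.3 in size.

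**Figure D1:**
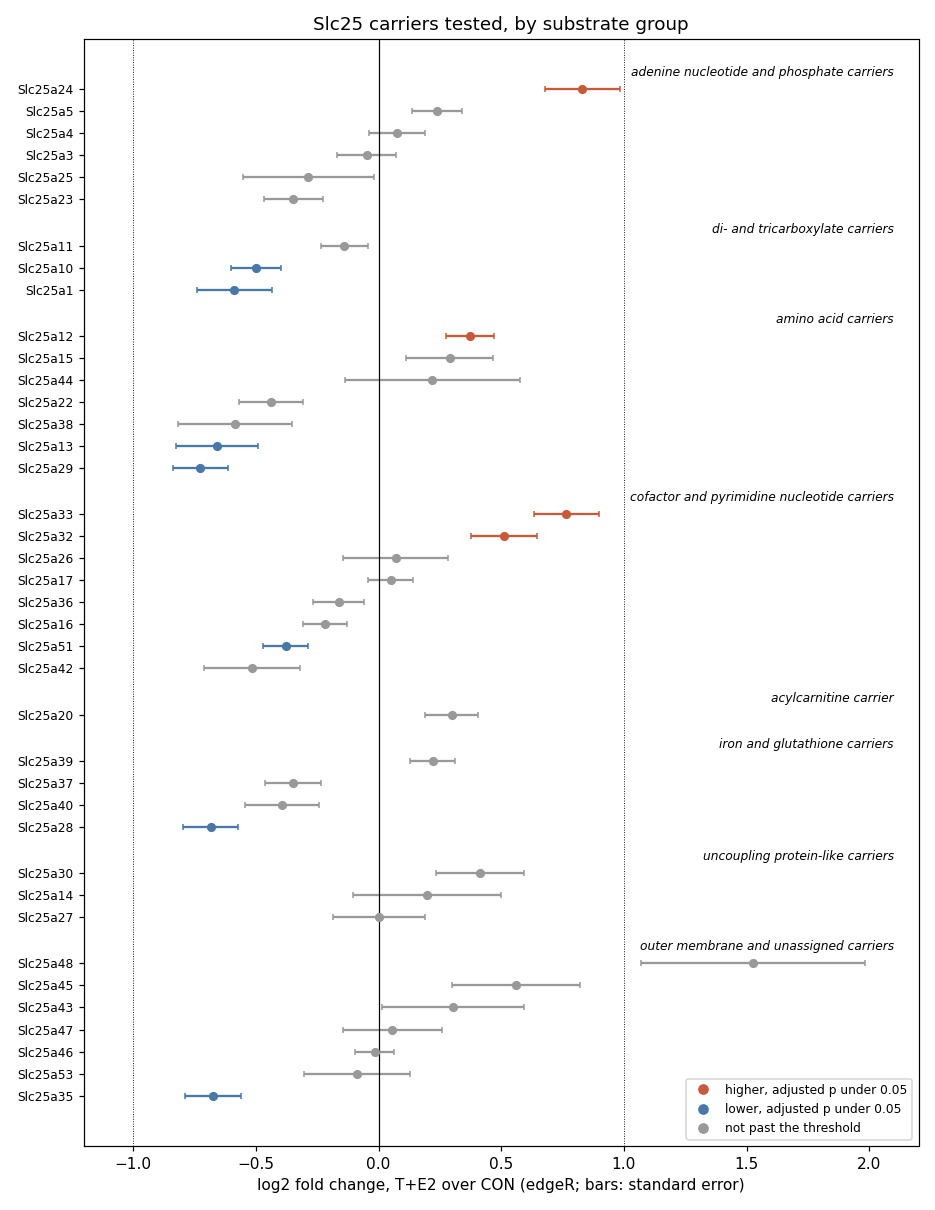
Log2 fold change (T + E2 over CON) of 39 of the 40 tested carriers, arranged by carrier group, with points for the edgeR estimate, bars for 1 standard error and colour for the call. The 4 genes called higher and the 7 called lower lie within 1 log2 unit of 0, and Slc25a48 lies beyond it with a wide bar and an adjusted p of 0.0507.

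Short promoter sequences are shown for the called carriers that share a motif. RefSeq promoters of build GRCm38.p6, reaching from 250 bases before to 50 bases after the start, were at hand for 36 of the 47 carriers and for 8 of the 11 called ones. The E-box CACGTG, the palindrome read by MYC-type and other basic helix-loop-helix factors, was the most frequent of 6 searched motifs among the called genes and lay in the promoters of Slc25a1, Slc25a13 and Slc25a33. It was present in 7 of the 36 carrier promoters and in 8.09% of 27025 gene promoters. In the windows below, read 5′ to 3′ along the gene's strand, capitals mark the E-box, and each window is given with its place on GRCm38.p6. Starts are those of RefSeq, and the gene span of Slc25a33 in the deposited data (chr4:149744036-149774277) includes its E-box.
Slc25a1 (lower, E-box 239 bases before the start, chr16:17928442-17928469, minus strand): cgctccagacgCACGTGtctctaaactg
Slc25a13 (lower, E-box 125 bases before the start, chr6:6217282-6217309, minus strand): acagtctgagtCACGTGtcctggcccct
Slc25a33 (higher, E-box 8 bases before the start, chr4:149774259-149774286, minus strand): ccggcctccgcCACGTGacggccgcgcg
The other motifs, searched on both strands, were rarer among the called genes. AGAACA, the half-site of androgen and other steroid receptors, was found in 4 carrier promoters and in none of the 8 called ones, against 21.3% of all promoters. The palindromic estrogen response element (0.074% of all promoters), the estrogen-related receptor element TCAAGGTCA (0.466%) and the palindromic NRF1 site (1.07%) were found in 0 carrier promoters. The cAMP response element TGACGTCA was found in 2 carrier promoters, those of Slc25a25 and Slc25a36, against 2.03% of all promoters. The E-box genes moved in both directions, and a match or its absence in these windows is a description of the letters alone.

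The adenine nucleotide and phosphate carriers serve the ATP synthase and held the largest share of carrier counts of any class, and among them Slc25a24 alone was called. Slc25a24 encodes an ATP-Mg/phosphate carrier that is opened by calcium and sets the size of the matrix adenine nucleotide pool (chr3:109123149-109168457 on GRCm38). Its level was 23.77, 32.53 and 23.26 CPM in the CON mice against 41.09, 51.51 and 48.85 CPM in the T + E2 mice. Every T + E2 mouse lay above every CON mouse, with a log2 fold change of 0.83 ± 0.15 (SE, n = 3 per group) and an edgeR adjusted p of 0.00793. It was the carrier with the highest fold change among those called, and without CON 2, the CON mouse with the highest value, the difference was 1.00 (edgeR adjusted p = 0.00324).

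Slc25a5 encodes ANT2, the ADP/ATP translocase of proliferating and epithelial cells, and it was the most abundant carrier per length in both groups, with 81.13 ± 7.03 FPKM (SD, n = 3) in the CON group and 93.44 ± 5.43 FPKM in the T + E2 group. Its level was 229.3, 222.5 and 269 CPM in the CON mice against 273.7, 287.7 and 289.2 CPM in the T + E2 mice. The groups did not overlap, but the difference of 0.24 ± 0.10 on the log2 scale did not pass the test (edgeR adjusted p = 0.136). Slc25a4 (ANT1, the translocase of heart and muscle) had 128.9, 123.3 and 147.2 CPM in the CON mice against 127.6, 157 and 136.1 CPM in the T + E2 mice. Slc25a3, the phosphate carrier, had 253.9, 255 and 323.1 CPM in the CON mice against 267.4, 251.7 and 285.7 CPM in the T + E2 mice. The groups overlapped for both genes, with log2 fold changes of 0.07 ± 0.11 and -0.05 ± 0.12, whose signs turned without T + E2 2 (Slc25a4) and without CON 3 (Slc25a3).

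The remaining ATP-Mg/phosphate carriers were not called. Slc25a23 had 159.1, 152 and 157.9 CPM in the CON mice against 137.7, 102.5 and 128.8 CPM in the T + E2 mice, with no overlap and a log2 fold change of -0.35 (edgeR adjusted p = 0.0773). Slc25a25 had a log2 fold change of -0.29 (edgeR adjusted p = 0.484), with overlapping groups. Slc25a41, of the same subfamily, and Slc25a54 had no count in any mouse, and Slc25a31 (ANT4, the translocase of the testis) had at most 1 count per mouse. Of 9 carriers listed in this class 6 were tested, 1 was called higher and 5 were not called, with a median log2 fold change of 0.01. Among all tested genes 10.4% were called higher.

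The order of carrier levels per length had ANT2 first and ANT1 second, by FPKM and also by CPM per kilobase of the union of annotated exons. ANT1, at 49.63 ± 3.78 and 51.03 ± 6.26 FPKM in the CON and T + E2 groups, lay below ANT2 by more than the spread. The next by mean FPKM were Slc25a17 (34.48 ± 1.57 and 34.74 ± 2.47 FPKM), the peroxisomal carrier of coenzyme A, FAD and NAD, and Slc25a3 (33.36 ± 4.17 and 31.50 ± 2.52 FPKM), and these neighbours differed by less than the SD of Slc25a3 in the CON group but by somewhat more than either SD in the T + E2 group. Slc25a28 was the fifth, with 39.07 ± 1.58 FPKM in the CON group, above Slc25a17, and 23.72 ± 2.92 FPKM in the T + E2 group, below it. The order below ANT1 depended on the gene length used. With the union of exons, Slc25a3 ranked 3, Slc25a11 (the oxoglutarate carrier) 4 and Slc25a39 5, Slc25a17 fell to rank 9 and Slc25a28 to rank 16. Slc25a17 itself had 55.16, 59.01 and 56.15 CPM in the CON mice against 59.01, 63.08 and 54.19 CPM in the T + E2 mice, overlapping groups with a log2 fold change of 0.05 ± 0.09 (edgeR adjusted p = 0.738) whose sign turned without T + E2 2.

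Of the di- and tricarboxylate carriers, which link the Krebs cycle to the cytosol, 2 of 3 tested members were called lower and none higher. Of all tested genes 9.25% were called lower, and 1 of the 2 calls here, that of Slc25a1, depended on single mice. The median log2 fold change of the class was -0.50. Slc25a1 encodes the citrate carrier, which exports citrate from mitochondria in exchange for malate (chr16:17925211-17928219). It had 76.56, 102.6 and 74.32 CPM in the CON mice against 64.96, 51.51 and 52.19 CPM in the T + E2 mice. The groups did not overlap, and the log2 fold change was -0.59 ± 0.15 (edgeR adjusted p = 0.0322). CON 2 had the highest value, and without it the difference was -0.43 and no longer passed the test (edgeR adjusted p = 0.0807). The call was also lost without T + E2 2 and without T + E2 3 (edgeR adjusted p = 0.103 and 0.0873).

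Slc25a10 encodes the dicarboxylate carrier, which exchanges malate and succinate for phosphate (chr11:120491840-120499187). Its level was 50.73, 57.57 and 60.48 CPM in the CON mice against 39.64, 37.39 and 42.38 CPM in the T + E2 mice, a log2 fold change of -0.50 ± 0.10 (edgeR adjusted p = 0.0117). It stayed called when any single mouse was left out. Slc25a11 had a log2 fold change of -0.14 (edgeR adjusted p = 0.335) with overlapping groups, and Slc25a21, the oxodicarboxylate carrier, had too few counts to be tested. Summed over this class the level was 213.6, 257.3 and 235.3 CPM in the CON mice against 195, 173 and 177.6 CPM in the T + E2 mice, without overlap. The class took 9.59, 11.5 and 9.73% of all carrier counts in the CON mice against 8.93, 8.04 and 7.94% in the T + E2 mice.

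The amino acid carriers moved in both directions, and the aspartate/glutamate carriers did so against each other. Both of these exchange matrix aspartate for cytosolic glutamate in the malate-aspartate shuttle, Slc25a12 (aralar, chr2:71271063-71367749) being the form of brain and muscle and Slc25a13 (citrin, chr6:6041218-6217173) the form of liver and other epithelia. Slc25a12 had 66.03, 57.17 and 56.21 CPM in the CON mice against 79.41, 79.34 and 73.61 CPM in the T + E2 mice, and it was called higher with a log2 fold change of 0.37 ± 0.10 (edgeR adjusted p = 0.032). Slc25a13 had 11.99, 14.98 and 15.09 CPM in the CON mice against 10.58, 8.10 and 8.01 CPM in the T + E2 mice, and it was called lower with a log2 fold change of -0.66 ± 0.17 (edgeR adjusted p = 0.0286). Neither gene's groups overlapped. Each stayed called in 2 of the 6 fits that left out a mouse, Slc25a12 without CON 1 or T + E2 3 and Slc25a13 without CON 1 or T + E2 1. Without CON 2 the adjusted p was 0.111 for Slc25a12 and 0.0796 for Slc25a13 in edgeR. Slc25a12 was also not called by limma on log2(FPKM + 0.1) or log2(FPKM + 1) (limma adjusted p = 0.0582 and 0.0578).

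Slc25a29, the carrier of arginine, lysine and other basic amino acids, had the strongest fall among the called carriers (chr12:108825873-108835883). It had 52.58, 51.78 and 60.17 CPM in the CON mice against 36.87, 29.47 and 33.17 CPM in the T + E2 mice. The lowest CON mouse lay well above the highest T + E2 mouse, with a log2 fold change of -0.73 ± 0.11 and an edgeR adjusted p of 0.00357, the smallest in the family. Slc25a47, a carrier best known from liver that lies next to it on chromosome 12, had a log2 fold change of 0.06 (edgeR adjusted p = 0.871).

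Slc25a22, a glutamate carrier, just missed the threshold with 33.84, 34.17 and 35.33 CPM in the CON mice against 24.35, 21.62 and 30.36 CPM in the T + E2 mice (log2 fold change -0.44, edgeR adjusted p = 0.0503). Without T + E2 3 it was called lower (-0.58, edgeR adjusted p = 0.0129). Slc25a38, the glycine carrier of haem synthesis, had a log2 fold change of -0.58 with overlapping groups (edgeR adjusted p = 0.116), and Slc25a15, the ornithine carrier, one of 0.29 without overlap (edgeR adjusted p = 0.281). Slc25a44, the carrier of branched-chain amino acids, had 22.78, 67.09 and 66.33 CPM in the CON mice against 65.65, 49.87 and 66.33 CPM in the T + E2 mice. CON 1 was far below the other 5 mice for this gene, with 344 counts against 1021 and 1055 in the other CON mice. With CON 1 the log2 fold change was 0.22 (edgeR adjusted p = 0.704) and without it -0.14 (edgeR adjusted p = 0.548). Of 7 tested amino acid carriers 1 was called higher, 2 lower and 4 not called, and Slc25a18 and Slc25a2 had too few counts. The shares over all tested genes were 10.4% called higher and 9.25% called lower.

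**Figure D2:**
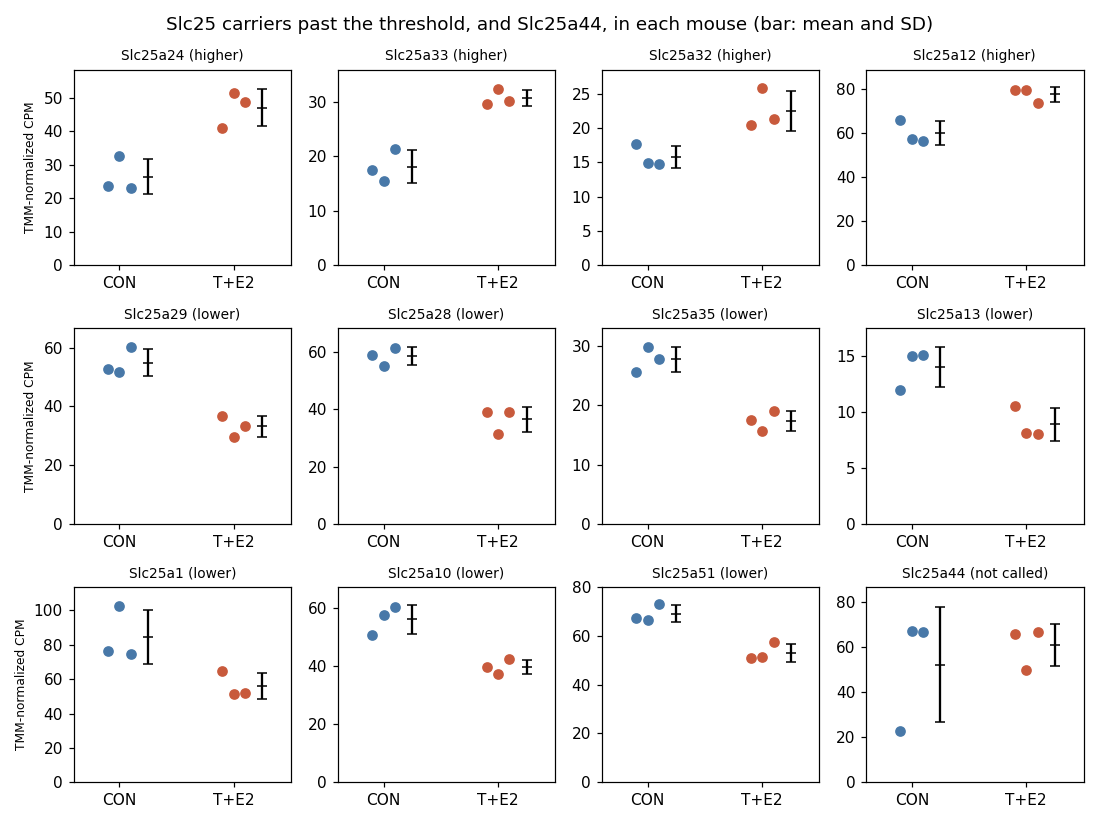
TMM-scaled CPM (linear axis from 0) of the 11 called carriers and of Slc25a44, which was not called, in each mouse, with points for the 3 CON and the 3 T + E2 mice and bars for mean and SD. In the 11 panels of called carriers the 3 T + E2 mice lie on one side of the 3 CON mice, for example from 73.61 CPM up against 66.03 CPM down for Slc25a12, while CON 1 lies alone at 22.78 CPM in the panel of Slc25a44.

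Of 9 tested carriers of cofactors and pyrimidine nucleotides, 2 were called higher, 1 lower and 6 were not called. Over all tested genes 10.4% were called higher and 9.25% lower. Slc25a33 encodes a pyrimidine nucleotide carrier that brings UTP and related nucleotides into mitochondria for the synthesis of their DNA and RNA (chr4:149744036-149774277). It had 17.42, 15.38 and 21.31 CPM in the CON mice against 29.54, 32.33 and 30.16 CPM in the T + E2 mice, with no overlap. The log2 fold change was 0.77 ± 0.13 (edgeR adjusted p = 0.00593), and without CON 2 it was 0.66 (edgeR adjusted p = 0.0187). Its paralogue Slc25a36 had 195.8, 160.6 and 172.5 CPM in the CON mice against 159.3, 167.4 and 146.1 CPM in the T + E2 mice, overlapping groups with a log2 fold change of -0.16 (edgeR adjusted p = 0.305).

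Slc25a32, known as a transporter of folate and of FAD into mitochondria, had 17.62, 14.98 and 14.78 CPM in the CON mice against 20.41, 25.82 and 21.29 CPM in the T + E2 mice (chr15:39094191-39112716). The log2 fold change was 0.51 ± 0.13 (edgeR adjusted p = 0.0319). This call held without CON 1 and without T + E2 1 but was lost when any of the other 4 mice was left out, for instance without CON 2 (0.47, edgeR adjusted p = 0.0941). It was also lost with total-count scaling (edgeR adjusted p = 0.0507) and by limma on log2(FPKM + 0.1) and log2(FPKM + 1) (limma adjusted p = 0.0564 and 0.0565). Slc25a51 encodes the NAD carrier (chr4:45395923-45408766) and had 67.42, 66.44 and 72.93 CPM in the CON mice against 50.78, 51.08 and 57.26 CPM in the T + E2 mice. Its log2 fold change was -0.38 ± 0.09 (edgeR adjusted p = 0.0248), and the groups lay clearly apart, yet the call held in only 1 of the 6 fits without a mouse, that without T + E2 3, with an adjusted p of 0.0596 without CON 2. The carriers of coenzyme A (Slc25a42, log2 fold change -0.52, edgeR adjusted p = 0.105) and S-adenosylmethionine (Slc25a26, 0.07) had overlapping groups, while Slc25a16 had a log2 fold change of -0.22 without overlap (edgeR adjusted p = 0.125).

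The iron and glutathione carriers comprise the mitoferrins, which import iron for haem and iron-sulphur clusters, and a pair of glutathione importers. Slc25a28, mitoferrin 2, is the widely expressed form (chr19:43663822-43674881). It had 58.94, 55.07 and 61.43 CPM in the CON mice against 38.95, 31.24 and 39.11 CPM in the T + E2 mice, far apart, with a log2 fold change of -0.68 ± 0.11 (edgeR adjusted p = 0.00465). Slc25a37, mitoferrin 1, is the form of developing red cells, and it had 149.4, 144.4 and 133.5 CPM in the CON mice against 100.9, 105.6 and 129.1 CPM in the T + E2 mice. The groups did not overlap, but the difference of -0.35 on the log2 scale did not pass the test (edgeR adjusted p = 0.0687). Without T + E2 3 it was -0.46 and was called lower (edgeR adjusted p = 0.0226). Slc25a39 and Slc25a40, the glutathione importers, had log2 fold changes of 0.22 and -0.39 without overlap (edgeR adjusted p = 0.133 and 0.104). All 4 genes had groups that did not overlap, as did 40.7% of all tested genes. Slc25a39 went the other way from the rest, and 1 gene was called lower, as were 9.25% of all tested genes. Summed, the genes had 321.1, 310.6 and 318.5 CPM in the CON mice against 276.9, 264.6 and 293.4 CPM in the T + E2 mice.

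Among the other carriers 1 gene was called, where 19.6% of all tested genes were called. Slc25a35, a carrier with no settled substrate (chr11:68968131-68974365), had 25.56, 29.77 and 27.85 CPM in the CON mice against 17.57, 15.65 and 18.95 CPM in the T + E2 mice, with a log2 fold change of -0.67 ± 0.11 (edgeR adjusted p = 0.00543). Its exons share 1151 bases (31.3%) with Rangrf on the opposite strand, and whether counting used the strand is not given in the sources used here. Rangrf had 34 to 53 counts per mouse and a log2 fold change of -0.27 (edgeR adjusted p = 0.401). Slc25a48, more recently linked to choline, had 1.26, 2.30 and 0.75 CPM in the CON mice against 2.28, 5.12 and 5.01 CPM in the T + E2 mice. These were 12 to 35 and 33 to 84 counts, and T + E2 1 fell within the CON range. The log2 fold change of 1.53 ± 0.46 was the largest in the family, with an adjusted p of 0.0507 in edgeR, and it was called higher without CON 2 (2.04, edgeR adjusted p = 0.0283) and without T + E2 1 (1.82, edgeR adjusted p = 0.0289).

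The carnitine/acylcarnitine carrier Slc25a20, which brings fatty acids in for oxidation, had 29.73, 29.24 and 32.19 CPM in the CON mice against 40.26, 39.15 and 32.70 CPM in the T + E2 mice, a log2 fold change of 0.30 (edgeR adjusted p = 0.0891) that became 0.39 and was called higher without T + E2 3 (edgeR adjusted p = 0.0359). The uncoupling protein-like carriers Slc25a14, Slc25a27 and Slc25a30 had overlapping groups, and the log2 fold change of Slc25a30 was 0.41 (edgeR adjusted p = 0.146), or 0.64 and called higher without CON 1 (edgeR adjusted p = 0.0198). Slc25a46, an outer membrane protein of mitochondrial fusion and fission, differed by -0.02 ± 0.08 on the log2 scale with an SD of 1.51 and 1.59 CPM around means of 56.75 and 56.13 CPM. Slc25a45 had a log2 fold change of 0.56 without overlap (edgeR adjusted p = 0.171), and Slc25a43, Slc25a47 and Slc25a53 had overlapping groups. Slc25a34 and the other untested carriers had at most 10 counts in any mouse.

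**Figure D3:**
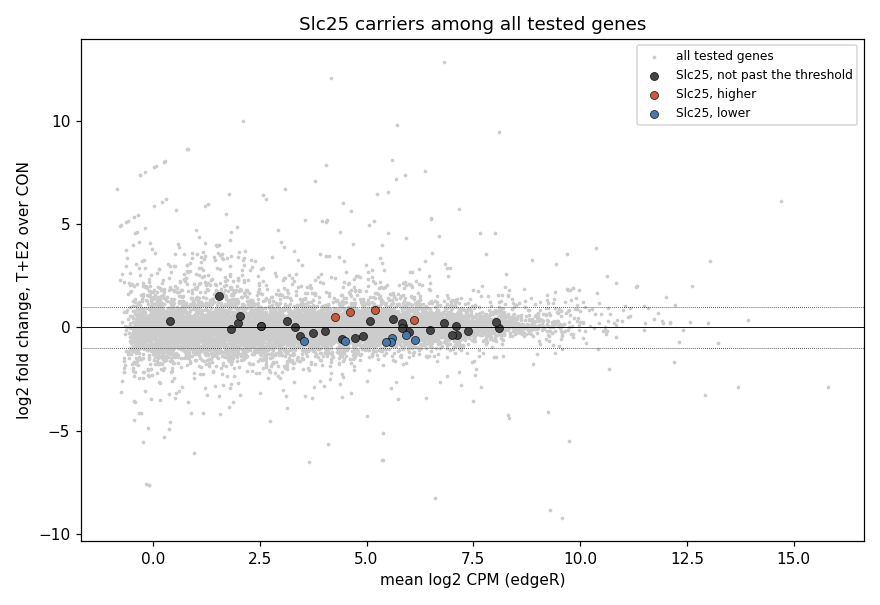
Log2 fold change (T + E2 over CON) against mean level (log2 CPM) for the 15580 tested genes in grey and the 40 tested carriers in colour by their call. The carriers lie between -0.73 and 1.53 on the vertical axis, inside the range of the other genes, with a median of -0.03.

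The carriers as a whole took a slightly smaller share of the gene counts in the T + E2 group. The share was 0.227, 0.229 and 0.240% in the CON mice against 0.209, 0.213 and 0.226% in the T + E2 mice, so the highest T + E2 mouse lay just below the lowest CON mouse. The means were 0.232 ± 0.0072% and 0.216 ± 0.0091% (SD, n = 3), and the exact two-sided permutation test gave p = 0.1, the smallest that 3 against 3 mice allow. The difference of -0.10 on the log2 scale was -0.05 when FPKM were summed in place of counts (exact permutation p = 0.4). Summed as TMM-scaled CPM the groups overlapped, with 2228, 2230 and 2419 CPM in the CON mice against 2185, 2151 and 2238 CPM in the T + E2 mice. ANT1, ANT2 and the phosphate carrier together held 27.5, 26.9 and 30.6% of the carrier counts in the CON mice against 30.6, 32.4 and 31.8% in the T + E2 mice, which touch at 30.6% after rounding. The whole adenine nucleotide and phosphate class held 36.4, 35.7 and 38.8% in the CON mice against 39.3, 40.0 and 40.4% in the T + E2 mice, without overlap.

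Ratios of counts between closely related carriers of the same mouse, chosen after their values were seen and given without a test, show how the balance of paralogues lay. Aralar counts were 5.51, 3.82 and 3.73 times those of citrin in the CON mice against 7.5, 9.8 and 9.19 times in the T + E2 mice, without overlap. Slc25a33 counts were 0.0889, 0.0957 and 0.124 times those of Slc25a36 in the CON mice against 0.185, 0.193 and 0.206 times in the T + E2 mice, again apart. The ratio of Slc25a24 to Slc25a23 was 0.149, 0.214 and 0.147 in the CON mice against 0.298, 0.503 and 0.379 in the T + E2 mice. The ratio of ANT2 to ANT1 was 1.78, 1.8 and 1.83 in the CON mice against 2.15, 1.83 and 2.12 in the T + E2 mice, which meet at the value of T + E2 2. Mitoferrin 2 to mitoferrin 1 was 0.395, 0.381 and 0.46 in the CON mice against 0.386, 0.296 and 0.303 in the T + E2 mice, with overlap. Counts are not divided by length here, so a ratio compares mice and not the amounts of the paralogues.

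**Figure D4:**
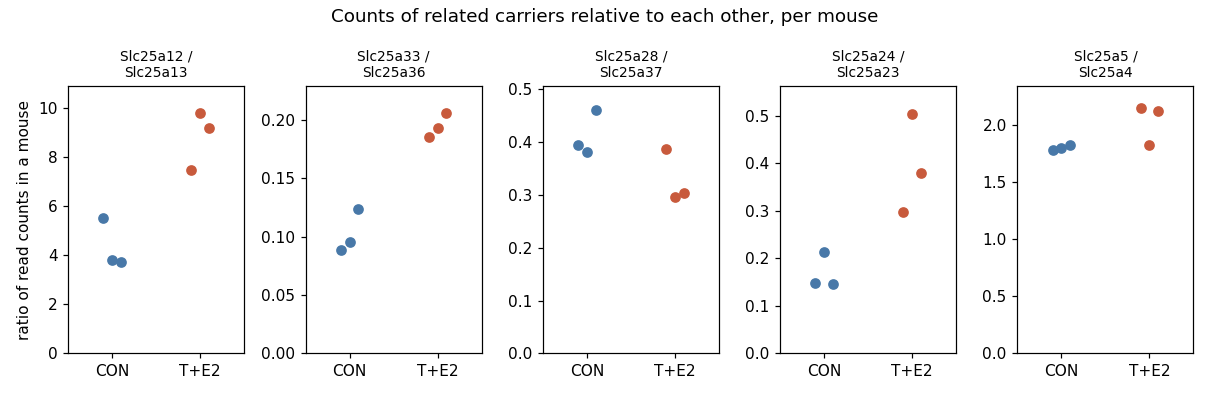
Ratio of the counts of paired carriers in each mouse (linear axes from 0), with points for the mice of each group. The ratios of Slc25a12 to Slc25a13 (3.73 to 5.51 against 7.5 to 9.8), Slc25a33 to Slc25a36 and Slc25a24 to Slc25a23 do not overlap between the groups, and that of Slc25a28 to Slc25a37 does.

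Genes that work beside the carriers were examined from 5 lists of 81 genes, of which 75 were tested. Of these 3 were called higher and 9 lower, 16% against 19.6% of all tested genes. None of 3 tested carrier-fold genes with other names was called (Ucp2, log2 fold change -0.13, edgeR adjusted p = 0.533), and Ucp1 had at most 1 count in a mouse. Of the import machinery that inserts carriers into the inner membrane 0 of 10 genes were called by edgeR, with Timm10 nearest to the threshold (-0.51, edgeR adjusted p = 0.0626).

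Among the partner enzymes, which make or use what the carriers move, 2 of 38 were called higher and 6 lower. Of all tested genes 10.4% and 9.25% were called in these directions. Ass1, which joins citrulline and aspartate in arginine synthesis, had 28.21, 27.86 and 24.83 CPM in the CON mice against 6.36, 9.26 and 14.21 CPM in the T + E2 mice, a log2 fold change of -1.44 ± 0.25 (edgeR adjusted p = 0.00629). Branched-chain amino acid breakdown was represented by Bcat2 (149.8 ± 29.7 against 84.13 ± 6.09 CPM, edgeR adjusted p = 0.00639) and the dehydrogenase subunits Bckdhb (35.56, 38.77 and 43.51 against 24.00, 21.68 and 20.49 CPM, edgeR adjusted p = 0.00188) and Bckdha (log2 fold change -0.38, edgeR adjusted p = 0.0412), all called lower. Shmt2, the mitochondrial serine hydroxymethyltransferase of folate metabolism (-0.57, edgeR adjusted p = 0.0394), and Cpt1a, which makes acylcarnitines (-0.35, edgeR adjusted p = 0.0319), were also called lower. Gls2, a glutaminase, rose from 2.36 ± 0.33 to 4.77 ± 0.89 CPM (log2 fold change 1.01, edgeR adjusted p = 0.0204). Alas2, the first haem synthesis enzyme of red cells, rose from 12.93 ± 1.18 to 36.87 ± 18.58 CPM (1.51, edgeR adjusted p = 0.0133), and it is also one of the red cell markers. Citrate synthase Cs (-0.16, edgeR adjusted p = 0.191) and ATP citrate lyase Acly (-0.25, edgeR adjusted p = 0.071), which make and split citrate, were not called.

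Of 17 tested genes of other mitochondrial membrane transport, Sfxn1, the serine transporter, was called higher (82.65, 92.39 and 80.67 CPM in the CON mice against 107.2, 114.5 and 109.4 CPM in the T + E2 mice, log2 fold change 0.37, edgeR adjusted p = 0.0254). Abcb10, an exporter of the haem pathway (-0.48, edgeR adjusted p = 0.0119), and Vdac1, a pore of the outer membrane (-0.36, edgeR adjusted p = 0.0212), were called lower. The calcium uniporter Mcu had a log2 fold change of 0.34 (edgeR adjusted p = 0.0591). Of 7 regulators of mitochondrial biogenesis, Pprc1, a coactivator of the PGC-1 family, was called lower with 31.66, 39.10 and 31.56 CPM in the CON mice against 20.96, 17.05 and 24.96 CPM in the T + E2 mice (-0.70, edgeR adjusted p = 0.0182). Ppargc1a (PGC-1α) had a log2 fold change of 0.73 (edgeR adjusted p = 0.0566), and Esrra, Nrf1, Tfam, Gabpa and Ppargc1b were not called. Of the 12 related calls, Abcb10, Ass1, Bcat2 and Bckdhb held in all 6 fits that left out a mouse. Alas2 lost its call without CON 3 (edgeR adjusted p = 0.0529), and the others held in 1 to 3 of the 6 fits.

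**Figure D5:**
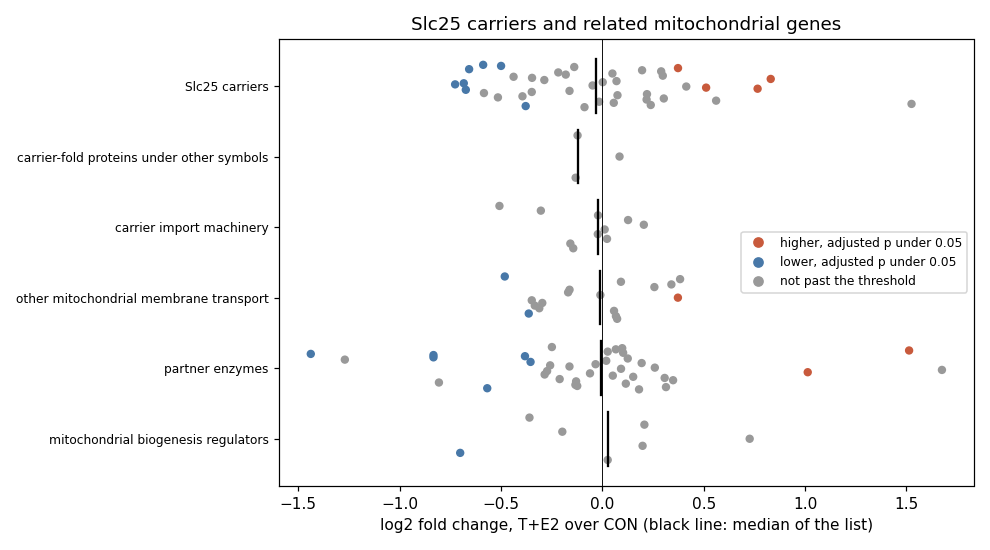
Log2 fold change (T + E2 over CON) of the 40 tested carriers and the 75 tested genes of the 5 related lists, with points coloured by the edgeR call and a black line at the median of each list. Among the related genes, Ass1 (-1.44) is the lowest called gene and Alas2 (1.51) the highest, and no gene of the import machinery or of the carrier-fold list is called.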

How the data were processed

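RNA of 6 mouse prostates (3 CON, 3 T + E2, each a separate mouse by the labels) was sequenced as TruSeq paired-end libraries. The authors deposited 1 table of 34745 genes with raw counts per gene and mouse and with FPKM. The submitters' processing notes name TopHat, Bowtie2 and HTSeq; versions, the genome build and the use of strand are not given in the sources used here. All 47 carriers occurred in GENCODE M21 (GRCm38), 37 with the same start and end. The deposited FPKM equalled counts divided by the authors' gene length and the total gene counts, within 0.0528%, and that length exceeded the union of annotated exons for 33 of 45 carriers with a count.

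Groups were compared on the counts by edgeR 4.0.16 (R 4.3.3): filterByExpr (minimum count 10, minimum total 15), TMM, glmQLFit and glmQLFTest, with Benjamini-Hochberg adjustment over all 15580 tested genes. The biological coefficient of variation was 18%. Standard errors were derived from the estimate and its F statistic. The study's methods name DESeq2, used here (1.42.0) as an alternative beside limma 3.58.1 on log2(FPKM + 0.1) and log2(FPKM + 1), other scalings and filters, and leaving out each mouse. The fit was tested on simulated data. Replicates differed by 16.67 to 36.42 in chi-square per degree of freedom, so none was a repeat deposit. Depth ran from 14816146 to 16555549 counts; limits from counts cover counting error only.

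Values per mouse were given for DEGs, for up to 8 called carriers in each direction and for the 5 with the highest mean FPKM, and of the related lists for DEGs and up to 4 genes per list by adjusted p; Slc25a44 and the other carriers with values per mouse were added after their values were seen. Values of 1 tested carrier are not reported here. The carriers and lists were chosen with earlier results of these data known. Transcripts were compared by BLAST+ 2.17.0+ (at least 90% identity over 300 bases). Promoters are from RefSeq (GRCm38.p6).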

Additional observations from a re-analysis of the deposited data

How the results depend on the processing

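Calls were recomputed under 14 alternatives. Slc25a24, Slc25a33, Slc25a29, Slc25a28, Slc25a35 and Slc25a10, 6 of the 11 called carriers, were called in the same direction in all 14. Calls over all genes also moved, from 19.6% of those tested to between 12.2% (without CON 3) and 17.2% (without T + E2 3) when 1 mouse was left out. The count of carriers called higher (4) was 2 by limma with either pseudocount (16.3 and 16.8% of all genes called), where Slc25a12 and Slc25a32 were lost, and 2 to 5 when 1 mouse was left out (2 without CON 3 or T + E2 2, where 6.9 and 6.99% of all genes were called higher). The count called lower (7) was 4 to 7 when 1 mouse was left out (4 without CON 2 or T + E2 2, where 5.84 and 5.5% of all genes were called lower). DEGs among the carriers (0 in edgeR) numbered 1 with no filter on low counts and 1 by DESeq2, and 0 to 2 when 1 mouse was left out. These were Slc25a48 (without CON 2, log2 fold change 2.04, and without T + E2 1, 1.82) and Slc25a24 (1.00 without CON 2). Related genes called (12) numbered 6 to 11 when 1 mouse was left out, 6 without CON 3 or T + E2 2 and 7 without T + E2 1, where calls over all genes fell from 3061 to 1929, 1978 and 2102. Deviations of same-numbered mice correlated at -0.0516, 0.0275 and 0.0463, and those of differently numbered mice at -0.182 to 0.137. These values show no pairing by replicate number, but 3 mice per group cannot exclude it. With the replicate block, 2 carriers were called higher and 6 lower, and 6 related genes were called, against 14% of all genes; Slc25a12, Slc25a32, Slc25a13, Slc25a1 and Slc25a51 were lost and Slc25a38 and Slc25a42 gained. Signs turned for Slc25a4 (-0.013 to 0.15 over the fits without 1 mouse) and Slc25a17 (-0.0030 to 0.10) without T + E2 2, for Slc25a3 (-0.11 to 0.076) without CON 3 and for Slc25a44 (-0.14 to 0.44) without CON 1. Slc25a22 was called lower in 4 and Slc25a37 in 2 alternatives. Total-count scaling gave 3 carriers higher and 8 lower. Over all genes it called 9.12% higher and 10.2% lower, against 10.4% and 9.25% in the main fit. DESeq2, the study's method, called 5 carriers higher and 9 lower, gaining Slc25a48, Slc25a22 and Slc25a37. It called 16 related genes and 18.2% of all genes. The share of counts on the carriers differed by -0.09 on the log2 scale without mitochondrial genome genes (exact permutation p = 0.2) and by -0.19 without the 10 largest genes (exact permutation p = 0.1).

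Transcripts similar to other genes limit some counts: Slc25a36 shares 544 bases at 99.6% identity with Gm13217 (45 to 77 counts per mouse), and Slc25a5 resembles 8 other genes, of which Slc25a5-ps had at most 2 counts and the other 7 were not analysed here. The called carrier Slc25a51 resembles the pseudogene Gm17831 (93.4% identity over 904 bases). Slc25a3 and Slc25a40 resemble the pseudogenes Gm13904 and Gm5066, and these pseudogenes were not analysed here either. The cause of a changed call was not tested.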
